A study of Mus musculus with 24 samples.

Results

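The genes described here are 34 genes of the synaptic vesicle release machinery, followed in mouse cortical neurons that lack an accessory chain of the interleukin-1 (IL-1) receptor and were given back AcP, AcPb, both or neither. They were found by an exact match of their symbols to the array's probe set annotation, which named all 34 of them on 87 probe sets, out of 18193 genes named by 1 symbol. Each gene was read on its brightest probe set, and 33 of the 34 passed a filter on dim genes and were tested among 14217 genes. Sv2c, which encodes a minor form of the SV2 vesicle glycoprotein, lay above the 40th percentile in only 1 of 24 arrays and was not tested, with group means of 12.3 to 25.3 intensity units.

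All cells were embryonic cortical neurons of Il1rap-/- mice, which lack the accessory protein AcP of the IL-1 receptor and its neuronal isoform AcPb, grown in a serum-free medium. They expressed CD25, a chain of the IL-2 receptor that takes no part in IL-1 signalling, or AcP, or AcPb, or AcP together with AcPb, and each of these 4 arms was left with a control stimulus or given IL-1b (10 ng/ml), for 4 h in either case. RNA of 3 samples per group was measured on 24 arrays in all. The study asked whether AcP or AcPb lets such neurons respond to IL-1b, and how AcPb changes the response with AcP. The labels do not say how the chains were introduced, in what share of cells, or whether the 3 samples of each group were separate cultures. The p-values therefore speak only of the spread among these samples, which may be technical.

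Neurons release transmitter when a synaptic vesicle fuses with the membrane of the nerve terminal. Synapsins tether vesicles in a reserve pool, Rab3 and the active zone proteins RIM, Munc13, Bassoon and Piccolo dock and prime them, and the SNARE proteins syntaxin, SNAP-25 and synaptobrevin draw the membranes together. Complexins hold the assembled SNAREs ready until calcium binds a synaptotagmin, and vesicular transporters fill vesicles with glutamate or GABA. In cultures of embryonic cortex these genes come up as neurons mature and form synapses.

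Upstream sequences are shown for 4 members that the results below turn on, Syn1, Rims1 and Pclo, which were higher in unstimulated neurons with AcP than with CD25, and Rab3c, which was lower. Each is the 250 bases before the gene's start in RefSeq (assembly GRCm38.p6), read 5′ to 3′ on the gene's own strand, and capitals mark matches to the motifs named below.
Syn1, chrX:20920919-20921168, minus strand: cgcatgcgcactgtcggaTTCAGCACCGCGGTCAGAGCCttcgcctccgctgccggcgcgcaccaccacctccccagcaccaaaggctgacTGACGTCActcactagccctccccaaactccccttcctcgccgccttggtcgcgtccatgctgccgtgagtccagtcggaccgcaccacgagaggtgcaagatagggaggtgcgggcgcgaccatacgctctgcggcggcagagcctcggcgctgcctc
Rims1, chr1:22806159-22806408, minus strand: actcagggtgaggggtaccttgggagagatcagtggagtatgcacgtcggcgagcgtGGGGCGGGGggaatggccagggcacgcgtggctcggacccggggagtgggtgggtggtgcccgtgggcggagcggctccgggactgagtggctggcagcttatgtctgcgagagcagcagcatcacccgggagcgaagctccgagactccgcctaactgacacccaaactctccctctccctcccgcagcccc
Pclo, chr5:14514668-14514917, plus strand: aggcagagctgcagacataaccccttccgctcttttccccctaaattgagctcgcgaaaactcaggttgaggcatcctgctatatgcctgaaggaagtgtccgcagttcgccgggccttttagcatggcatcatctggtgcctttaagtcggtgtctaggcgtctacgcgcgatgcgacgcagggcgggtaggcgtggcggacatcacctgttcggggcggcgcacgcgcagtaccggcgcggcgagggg
Rab3c, chr13:110280207-110280456, minus strand: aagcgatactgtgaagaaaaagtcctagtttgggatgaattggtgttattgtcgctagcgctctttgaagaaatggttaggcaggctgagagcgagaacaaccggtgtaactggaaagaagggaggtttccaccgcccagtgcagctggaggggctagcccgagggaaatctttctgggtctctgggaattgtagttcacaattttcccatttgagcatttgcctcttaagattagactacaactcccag

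In the sequence of Syn1 the first run of capitals is a match to the RE1 element, the site of the neuronal repressor REST (searched with up to 4 mismatches), which starts 232 bases before the gene's start and has 1 mismatch. The second run in Syn1 is the cyclic AMP response element TGACGTCA, 159 bases before the start, and the run in Rims1 is a GC box, GGGGCGGGG. The windows of Pclo and Rab3c held no match to the motifs searched, which says only that these letters are absent there. The RefSeq promoter table held 26 of the 34 members with 36 start sites, and Rims2, Snap25, Syn3, Syt4, Syt5, Syt7, Syt13 and Vamp2 had no entry. On either strand, RE1 matches lay in 3 of the 36 windows (8.33%), against 0.469% of 32851 windows of the same length. They were those of Syn1, Syt2 and Syt6, with 1, 4 and 4 mismatches. The GC box lay in 10 of 36 (27.8%) against 10.4%, the cyclic AMP element in 1 (2.78%) against 1.55%, its core TGACG, which the full element contains, in 7 (19.4%) against 17.8%, and TATAAA in 3 (8.33%) against 12.4%. Overlapping windows of Syt6 held the same GC box, which was therefore counted more than once. By gene, the GC box lay in 8 of 26 members, against 11.8% of all genes. The NF-kB consensus had 0 matches in the 36 windows and matches in 1.41% of all windows. Member windows held a median of 11.5 CpG dinucleotides against 6, and the part of base composition in the GC box shares was not tested.

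Replicate arrays correlated across genes at means of 0.9758 to 0.9865 within groups. Spread was largest among AcP controls (median SD per gene 0.165 on the log2 scale, elsewhere 0.0896 to 0.116), and AcP control 1 stood apart, with member genes at a median of 0.2365 log2 units above their mean over all arrays, against 0.03337 and 0.0195 in the other 2. Array codes in the labels were m21B for all arrays but those of AcP+AcPb neurons, which had m22B (controls 1 and 2) and m23B, so that the AcP+AcPb arm cannot be told apart from these codes. Known IL-1b targets checked the stimulus: Cxcl10, a chemokine gene, rose by 6.50 log2 units in AcP (adjusted p = 4.5e-10) and 5.22 in AcP+AcPb neurons (1.5e-08), and Nfkbia, the inhibitor of NF-kB, rose by 0.97 (7.2e-07) and 0.70 (9.6e-05). Cxcl10 averaged 13.5 intensity units in AcP controls, 54.4 in AcP+AcPb controls and 198.6 in CD25 controls, and the size of its change in AcP neurons ran from 5.05, with 64 in place of 16 added before log2, to 6.85 over 17 alternatives. In CD25 and AcPb neurons neither was called, with Nfkbia at 0.08 and 0.06 (limma, called at a Benjamini-Hochberg adjusted p under 0.05 over all genes tested). Ccl2, another chemokine gene, rose by 3.41 and 3.24 in the 2 arms with AcP, and had 0.06 and -0.10 in CD25 and AcPb neurons. Il1rap, which encodes AcP as well as AcPb, had group means of 111 to 136 intensity units, which check no label because an introduced coding sequence need not hold the stretch that the array probes.

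No member of the vesicle release set was called after IL-1b within any of the 4 arms. By limma 0 of 33 were called in CD25 neurons, where 0 of 14217 genes were (0%), 0 in AcP neurons, where 0.542% of all genes were called, 0 in AcPb neurons (0.00703%) and 0 in AcP+AcPb neurons (0.457%). At an unadjusted p under 0.05 the members numbered 4 in CD25 (all genes 6.04%), 2 in AcP (8.79%), 8 in AcPb (11%) and 6 in AcP+AcPb neurons (11.1%). IL-1b and control arrays did not overlap for 8, 2, 12 and 9 of the 33 members in these arms (24.2%, 6.06%, 36.4% and 27.3%). The shares of all genes were 13.7%, 10.6%, 23.1% and 18.2%. The 95% interval of the log2 change lay wholly within -0.5 and 0.5 for 29, 30, 28 and 29 of the 33 members in CD25, AcP, AcPb and AcP+AcPb neurons. Here and below a log2 change is a difference on the scale of log2(intensity + 16), with its standard error after ±. Its median over the members was 0.04 in CD25, 0.00 in AcP, -0.07 in AcPb and -0.04 in AcP+AcPb neurons, beside 0.01, 0.00, 0.00 and 0.01 over all genes.

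Among the synapsins and other vesicle proteins, no IL-1b response reached the threshold. Syn1, which tethers vesicles to actin, had 2334, 2340.5 and 2522 in CD25, 3259, 2858 and 2633 in AcP, 2688, 2507 and 2599 in AcPb and 2827, 2957 and 2538 in AcP+AcPb controls. After IL-1b Syn1 had 2376, 2213 and 2630.4 in CD25, 2719, 2936 and 3064 in AcP, 2258, 1940.4 and 2269 in AcPb and 2499.9, 2439.5 and 2351 in AcP+AcPb neurons. The IL-1b arrays of Syn1 lay below their controls without overlap in AcPb and AcP+AcPb neurons, with log2 changes of -0.27 ± 0.08 (adjusted p = 0.26) and -0.19 ± 0.08 (0.42), and overlapped with them in CD25 and AcP neurons, with log2 changes of 0.00 in CD25 and -0.00 in AcP neurons. Syp, the abundant vesicle protein synaptophysin, had group means of 2877 to 3431, and Sv2a, the SV2 form to which levetiracetam binds, of 1839 to 2220.0, and their log2 changes were 0.14, -0.02, -0.05 and 0.03 for Syp and 0.08, 0.07, -0.15 and -0.18 for Sv2a in CD25, AcP, AcPb and AcP+AcPb neurons.

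Of the 9 synaptotagmins, Syt3, a calcium sensor with high affinity, had the largest log2 change of all members in CD25 neurons (0.37 ± 0.20, adjusted p = 0.86) and in AcPb neurons, in the opposite direction (-0.40 ± 0.20, 0.47). Its arrays were 159, 102 and 178 in CD25, 224, 155 and 144 in AcP, 193, 159.8 and 179 in AcPb and 178, 186 and 185 in AcP+AcPb controls. With IL-1b Syt3 had 179, 184 and 207 in CD25, 128, 166 and 199.9 in AcP, 178, 109.9 and 112 in AcPb and 178, 182 and 150.1 in AcP+AcPb neurons. The lowest 3 of the Syt3 values lay in a CD25 control and in AcPb neurons with IL-1b, and control and IL-1b arrays overlapped in every arm but CD25. Syt4, an atypical synaptotagmin whose gene is induced by activity, had its highest group in AcP neurons with IL-1b, 2782, 2923 and 2859 against 2692, 2438 and 2696 in their controls (0.13 ± 0.05, adjusted p = 0.37). Syt5 had log2 changes of -0.29 in CD25 and -0.26 in AcP+AcPb neurons (adjusted p = 0.82 and 0.39), with values of 0.10 and 0.19 in the other two arms. Syt2, the fast calcium sensor of brainstem synapses, was dim at group means of 34.2 to 46.9, as was Syt6 at 76.0 to 93.5. Syt7, the sensor of slow asynchronous release, and Syt11, which binds no calcium, had group means of 1633 to 1821 and 3189 to 3617, and log2 changes between -0.07 and 0.12 in all 4 arms.

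The SNARE genes and complexins gave log2 changes between -0.22 and 0.33 over the 4 arms. Vamp1, the synaptobrevin of spinal and brainstem terminals, gave the largest of them, 0.33 ± 0.30 in AcP+AcPb neurons with a 95% interval of -0.31 to 0.96, from dim group means of 58.5 to 94.8. Vamp2, the main synaptobrevin of the forebrain, had group means of 2806 to 3205 and log2 changes of 0.07, -0.02, -0.11 and 0.01 in CD25, AcP, AcPb and AcP+AcPb neurons. Stx1a, syntaxin 1A of the plasma membrane, had 4153, 3807 and 3884 in AcPb controls and 3641, 3192 and 3334 after IL-1b (-0.22 ± 0.08, adjusted p = 0.3), without overlap. In AcPb neurons all 6 genes of this group had negative log2 changes, none of them called.

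Pclo, which encodes the active zone scaffold Piccolo, was the 1 member called lower after IL-1b when the 4 arms were averaged. In this average 13 of 33 members lay above 0 (39.4%), against 52.5% of all genes. At an unadjusted p under 0.05 the members numbered 6, against 12.2% of all genes. The Pclo controls were 830.1, 833 and 913 in CD25, 1165, 1273 and 1181 in AcP, 949, 939 and 964 in AcPb and 1129.6, 1066 and 1049.8 in AcP+AcPb neurons. After IL-1b they were 691, 769.9 and 865 in CD25, 895, 912 and 929 in AcP, 732, 712 and 802 in AcPb and 880.4, 966 and 720.1 in AcP+AcPb neurons. The IL-1b arrays lay below all controls of their own arm in AcP, AcPb and AcP+AcPb neurons, and overlapped with them in CD25 neurons. Averaged over the arms, Pclo fell by 0.31 ± 0.04 log2 units (0.808 times the control level, adjusted p = 0.00094). Pclo was the 1 member called of 33, where 0.781% of all genes were called and 0.281% were called lower. The log2 change was -0.15 ± 0.09 in CD25 (adjusted p = 0.86), -0.40 ± 0.09 in AcP (0.053), -0.34 ± 0.09 in AcPb (0.2) and -0.34 ± 0.09 in AcP+AcPb neurons (0.11), so no arm reached the threshold alone.

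The Pclo response of AcP neurons minus that of CD25 neurons was -0.25 ± 0.13 (95% interval -0.51 to 0.02, adjusted p = 0.58), which was not called. Its average fall was called under each of 34 alternatives in processing, with adjusted p-values up to 0.01. With p-values adjusted over all probe sets, the 2 dimmer Pclo probe sets gave averages of -0.34 (adjusted p = 0.045) and -0.22 (adjusted p = 0.3). None of 10 neuron markers was called in this average, where 0.781% of all genes were, and their median was 0.01. Their part in the Pclo result was not tested.

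Bsn, the Piccolo relative Bassoon, had log2 changes of 0.04, -0.13, -0.27 and -0.22 in CD25, AcP, AcPb and AcP+AcPb neurons, and was noisy, with group means of 608 to 841. Rims2, a paralogue of the priming scaffold RIM1, averaged -0.11 ± 0.03 (adjusted p = 0.12) and was negative in all 4 arms. Unc13a, the priming factor Munc13-1, had group means of 692 to 816 and changes between -0.09 and 0.04. Rab3a, the major Rab3 of synaptic vesicles, had log2 changes of 0.18 ± 0.08 in CD25 (adjusted p = 0.82) and -0.13 in AcP neurons, with group means of 3815 to 4461. Snap91, the clathrin adaptor AP180 that retrieves vesicle membrane, had the smallest changes of all members, between -0.02 and 0.02. The glutamate transporter genes Slc17a6 (VGLUT2) and Slc17a7 (VGLUT1) had their largest changes in AcPb neurons, -0.14 ± 0.06 and -0.27 ± 0.12 (adjusted p = 0.41 and 0.41), and Slc32a1, the GABA transporter of vesicles, had changes of -0.06 to 0.11.

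**Figure D1:**
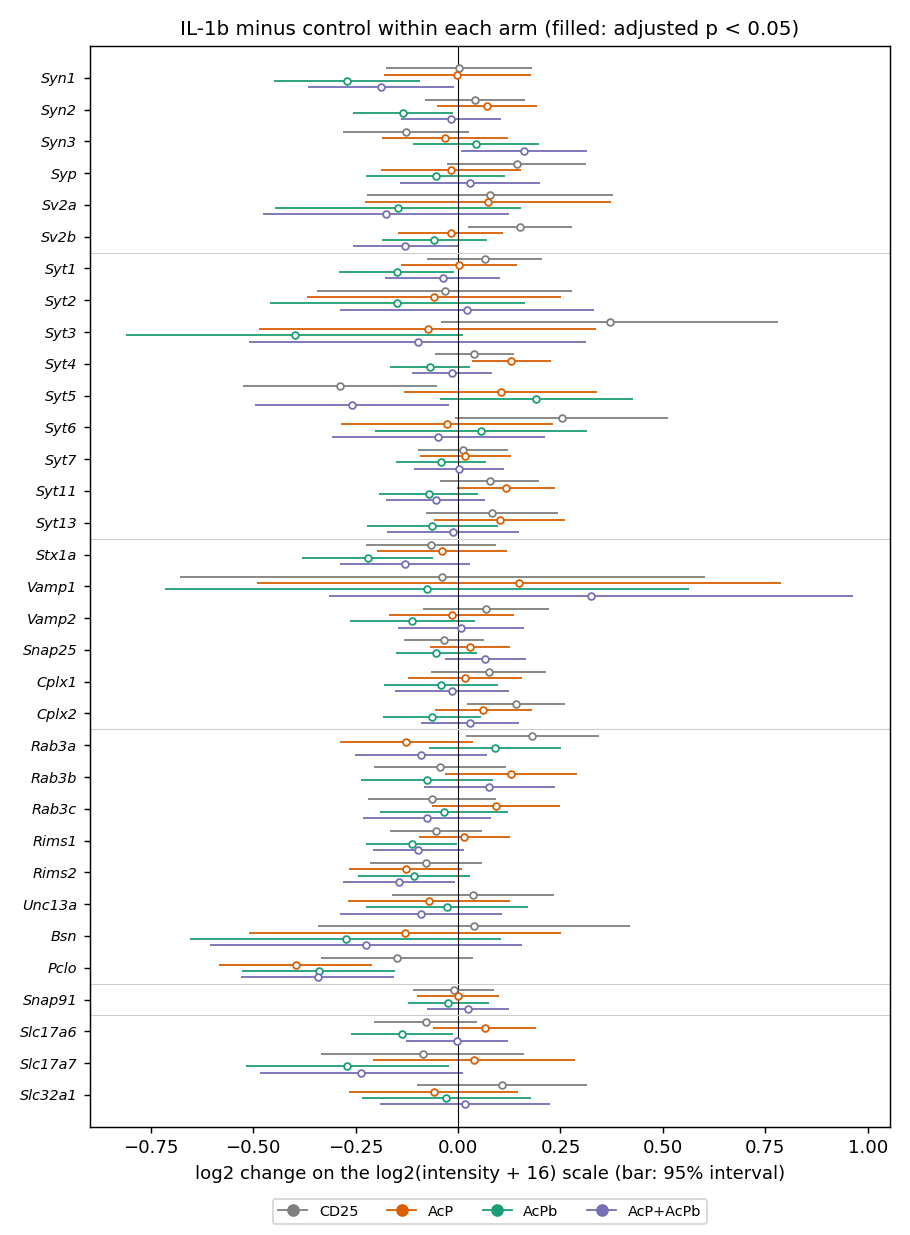
The log2 change after IL-1b (x axis, log2(intensity + 16) scale) of the 33 tested members (y axis) is plotted in each of the 4 arms, with 95% intervals as bars and filled points for adjusted p under 0.05. No point is filled, and all lie between -0.40 and 0.37, with Pclo negative in every arm.

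The responses were compared for 3 pairs of arms. limma called 0 of 33 members for AcP against CD25 (all genes 0.246%), 0 for AcPb against AcP (0.26%) and 0 for AcP+AcPb against AcP (0.00703%), with 2 (9.07%), 5 (8.34%) and 3 (5.3%) at an unadjusted p under 0.05. In AcPb neurons, 4 of 33 members had a log2 change above 0, where 48.7% of all genes did, and in 12 members (36.4%) the IL-1b arrays did not overlap the controls, against 23.1% of all genes. Syn2, the second synapsin, was 1 of the 12, at 2192, 2213 and 2220.2 in AcPb controls and 2016, 2006 and 2009 with IL-1b (-0.13 ± 0.06, adjusted p = 0.41). By mean log2 value, AcPb neurons with IL-1b formed the lowest of the 8 groups for 19 of 33 members (57.6%), among them Syn1, Syn2, Sv2b, Syt1, Snap25, Rims1, Pclo and Slc17a7, where this group was the lowest for 13.7% of all genes. All 10 neuron markers had log2 changes below 0 in AcPb neurons too, with a median of -0.05 and 0 called. The other 2 neuron lists were not lower in sum. Sums of 4 excitatory neuron markers, Slc17a7 among them, averaged 5188 in AcPb controls and 5437 with IL-1b. Those of 5 inhibitory neuron markers averaged 5983 and 6045, with overlap. The part of these markers in the result was not tested.

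Without IL-1b, release genes differed between the arms, and 10 were higher and 2 lower in AcP than in CD25 neurons. limma called 12 of 33 members (36.4%) in this comparison, where 15.5% of all genes were called, 6.86% higher and 8.68% lower. The median log2 difference was 0.12 over the members and 0.01 over all genes. In AcPb neurons 4 members were called against CD25 (12.1%, all genes 7.62%), 3 higher (all genes 2.36%) and 1 lower (all genes 5.25%). In AcP+AcPb neurons 7 were called (21.2%), near the 18.7% of all genes. Of these, 5 were higher (all genes 6.81%) and 2 lower (all genes 11.9%). These 3 comparisons share the CD25 controls. In AcP, AcPb and AcP+AcPb controls, 13, 13 and 16 of 33 members did not overlap the CD25 arrays (39.4%, 39.4% and 48.5%). Of all genes, 28.1%, 32.7% and 40.2% did not. With only the 6 arrays compared in the fit, 1 member was called in AcP and 1 in AcPb neurons, and with array medians centred 5 (3 higher, 2 lower) and 1 (lower).

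Leaving out 1 array moved the 12 calls of AcP neurons to 6 without AcP control 1 and to 7 without CD25 control 1, and the 4 calls of AcPb neurons to 2 without CD25 control 1 or 3 or AcPb control 1 or 2. Quantile normalization gave 14 calls for AcP+AcPb neurons, 12 higher and 2 lower. Of the 17 alternatives run for AcP against CD25, Pclo kept its call in all 17, Sv2b and Syt13 in 16, Syn2, Rims1 and Rab3c in 15, Syn3 in 13, Cplx1 and Slc17a6 in 11, Syn1 in 10, Slc32a1 in 8 and Syt1 in 7.

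The CD25 controls stood apart in other cell markers as well. The summed intensity of 7 markers of progenitors and dividing cells ran from 4563 to 5024 in CD25 controls, 3167 to 3517 in AcP, 3595 to 3852 in AcPb and 2833 to 3197 in AcP+AcPb controls. Against CD25, limma called 5, 4 and 6 of the 7, where 15.5%, 7.62% and 18.7% of all genes were called. Sums of 10 neuron markers overlapped between all 4 arms, from 40990 to 43730 in CD25 and 41590 to 48080 in AcP controls, and those of 8 astrocyte markers did too. Sums of 5 inhibitory neuron markers were 6536 to 6672 in CD25, 5780 to 6357 in AcP, 5679 to 6196 in AcPb and 6098 to 6454 in AcP+AcPb controls. Of 8 microglia markers 5 were too dim to test, with Aif1 and C1qa at means below 0 in all groups. The Cxcl10 level in CD25 controls was 227, 175 and 193, against -2.38, 13.7 and 29.2 in AcP controls. The part of these differences in the results on release genes was not tested, and in bulk RNA fewer cells of a type cannot be told apart from less RNA per cell.

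Among the vesicle proteins, Syn2 and Sv2b were higher in both arms that held AcP. Syn2 had 2013, 2022 and 2115 in CD25, 2798, 2253 and 2534 in AcP, 2192, 2213 and 2220.2 in AcPb and 2576, 2582 and 2532 in AcP+AcPb controls. All Syn2 arrays of AcP, AcPb and AcP+AcPb controls lay above all CD25 controls. The differences were 0.30 ± 0.06 for AcP (adjusted p = 0.0018) and 0.32 ± 0.06 for AcP+AcPb (0.00091), and 0.11 ± 0.06 for AcPb was not called (0.3). Sv2b, a vesicle glycoprotein gene, had 1209, 1118 and 1085 in CD25, 1711, 1518 and 1441 in AcP, 1169, 1141 and 1193 in AcPb and 1465, 1444 and 1370.3 in AcP+AcPb controls. Sv2b differed by 0.45 ± 0.06 for AcP (1.36-fold, adjusted p = 5.7e-05), 0.32 ± 0.06 for AcP+AcPb (0.0012) and 0.04 for AcPb. Sv2b was also the 1 member called between AcPb and AcP controls, at -0.41 ± 0.06 (adjusted p = 0.003). Of all genes 0.971% were called there, and the Sv2b call was lost with only these 6 arrays in the fit. At an unadjusted p under 0.05 the members numbered 12 of 33 in this comparison, against 12.4% of all genes. The 2 groups did not overlap for 10 members (30.3%), against 14% of all genes. The difference lay above 0 for 11 members (33.3%), against 46.9% of all genes. Between AcP+AcPb and AcP controls 0 of 33 members were called (all genes 0.239%), with 3 at an unadjusted p under 0.05 (11.5%).

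Syn1 was 0.28 ± 0.08 higher in AcP than in CD25 controls (adjusted p = 0.035), with array values given above that did not overlap. Syn3, a synapsin of developing neurons, went the other way. Its arrays were 1548, 1591 and 1583 in CD25, 1248, 1249 and 1380.0 in AcP, 1358, 1429 and 1385 in AcPb and 1248, 954 and 1114 in AcP+AcPb controls, with the CD25 arrays above all others. Syn3 differed by -0.28 ± 0.07 in AcP (adjusted p = 0.013) and -0.51 ± 0.07 in AcP+AcPb neurons (9.9e-05), and -0.18 ± 0.07 in AcPb neurons was not called (0.16). This probe set of Syn3 may be shared by related transcripts, and another Syn3 probe set was not called, at -0.15 (adjusted p = 0.4) and -0.12 (adjusted p = 0.45). The mean of all Syn3 probe sets gave -0.13 and -0.12, neither called.

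Of the synaptotagmins, Syt13, which lacks the calcium-binding residues, was higher in all 3 receptor arms. Syt13 had 361, 349 and 331 in CD25, 563, 450.1 and 482 in AcP, 441, 469 and 404 in AcPb and 509, 462 and 446 in AcP+AcPb controls, the lowest being CD25 without overlap. The log2 differences of Syt13 were 0.50 ± 0.08 for AcP (1.41-fold, adjusted p = 0.00018), 0.32 ± 0.08 for AcPb (0.014) and 0.43 ± 0.08 for AcP+AcPb (0.00084). A further probe set of Syt13 gave 0.67 (adjusted p = 0.0025), 0.52 (adjusted p = 0.027) and 0.83 (adjusted p = 0.0004). Syt1, the fast calcium sensor of the forebrain, had 4585, 4943 and 5057 in CD25, 5886, 5978 and 5002 in AcP, 5570.1, 5049.7 and 5313 in AcPb and 5536, 5834 and 5263 in AcP+AcPb controls. AcP control 3 of Syt1 overlapped the CD25 arrays, and the AcP difference was 0.21 ± 0.07 (adjusted p = 0.045).

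Cplx1, a clamp and helper of SNARE fusion, had 4092, 4591 and 4567 in CD25, 5605, 5384 and 4556 in AcP, 4663, 4509 and 4663 in AcPb and 4937, 4838 and 4884 in AcP+AcPb controls, with AcP control 3 inside the CD25 range and a difference of 0.23 ± 0.07 for AcP (adjusted p = 0.028). Both further Cplx1 probe sets were called in AcP, at 0.23 (adjusted p = 0.012) and 0.35 (adjusted p = 0.016). Cplx2, its forebrain paralogue, had 3297, 3463 and 3107 in CD25, 3558, 3286 and 3654 in AcP, 3846, 3772 and 3747 in AcPb and 3590.2, 3775 and 3639.9 in AcP+AcPb controls and was higher in AcPb than in CD25, by 0.20 ± 0.06 (0.034), on a probe set that may be shared by related transcripts. The other 2 Cplx2 probe sets gave 0.21 (adjusted p = 0.5) and -0.02 (adjusted p = 0.93), and the call held in 8 of 17 alternatives. Stx1a had 3319.9, 3217 and 3628 in CD25, 4160.5, 4039 and 3445 in AcP, 4153, 3807 and 3884 in AcPb and 4058, 4116 and 3575 in AcP+AcPb controls, and its differences of 0.19, 0.22 and 0.21 against CD25 were not called (adjusted p = 0.096, 0.088 and 0.064).

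At the active zone, Pclo and Rims1 were higher and Rab3c was lower with AcP. Pclo was 0.48 ± 0.09 above CD25 in AcP controls (1.4-fold, adjusted p = 0.00099) and 0.33 ± 0.09 in AcP+AcPb controls (0.015), without overlap. The AcPb controls of Pclo, at 949, 939 and 964, also lay above all CD25 controls, at 830.1, 833 and 913, but Pclo was not called there. Rims1, which encodes the priming scaffold RIM1, had 1251, 1260.3 and 1306 in CD25, 1558, 1430.2 and 1491 in AcP, 1219, 1342 and 1317 in AcPb and 1523, 1443 and 1529 in AcP+AcPb controls. Its differences were 0.23 ± 0.05 (adjusted p = 0.0067) for AcP and 0.23 ± 0.05 (0.0051) for AcP+AcPb, and 0.02 for AcPb, whose arrays overlapped CD25. Rab3c, a vesicle Rab3 close to Rab3a, had 2219, 2568 and 2379 in CD25, 1809, 1697 and 1998 in AcP, 1720.1, 1829.9 and 1818 in AcPb and 1865, 1892 and 2020.4 in AcP+AcPb controls, and every CD25 array lay above every other one. Rab3c differed by -0.38 ± 0.07 in AcP (adjusted p = 0.0018), -0.41 ± 0.07 in AcPb (0.0017) and -0.31 ± 0.07 in AcP+AcPb neurons (0.0078). The second brightest of 5 Rab3c probe sets gave -0.21 (adjusted p = 0.11), -0.37 (adjusted p = 0.012) and -0.12 (adjusted p = 0.33). Dimmer Pclo probe sets gave 0.37 (adjusted p = 0.14) and 0.28 (adjusted p = 0.24) for AcP, and the other Rims1 probe set gave 0.21 (adjusted p = 0.19).

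Of the transporters, VGLUT2 and VGAT were called and VGLUT1 was not. Slc17a6 had 1405, 1616 and 1486 in CD25, 1815, 1686 and 1711 in AcP, 1839, 1807 and 1737 in AcPb and 1693, 1686 and 1647 in AcP+AcPb controls and was higher in AcP (0.21 ± 0.06, adjusted p = 0.023) and AcPb neurons (0.26 ± 0.06, 0.012), and 0.16 ± 0.06 in AcP+AcPb neurons was not called (0.072), although its arrays did not overlap CD25. Slc32a1 had 1129, 1171 and 1191 in CD25, 1506, 1470.2 and 1408 in AcP, 1238, 1173 and 1226 in AcPb and 1095, 1445 and 1079 in AcP+AcPb controls. It was 0.32 ± 0.10 higher in AcP than in CD25 (adjusted p = 0.032), while the AcP+AcPb arrays held 1 value above and 2 below all of the CD25 arrays.

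**Figure D2:**
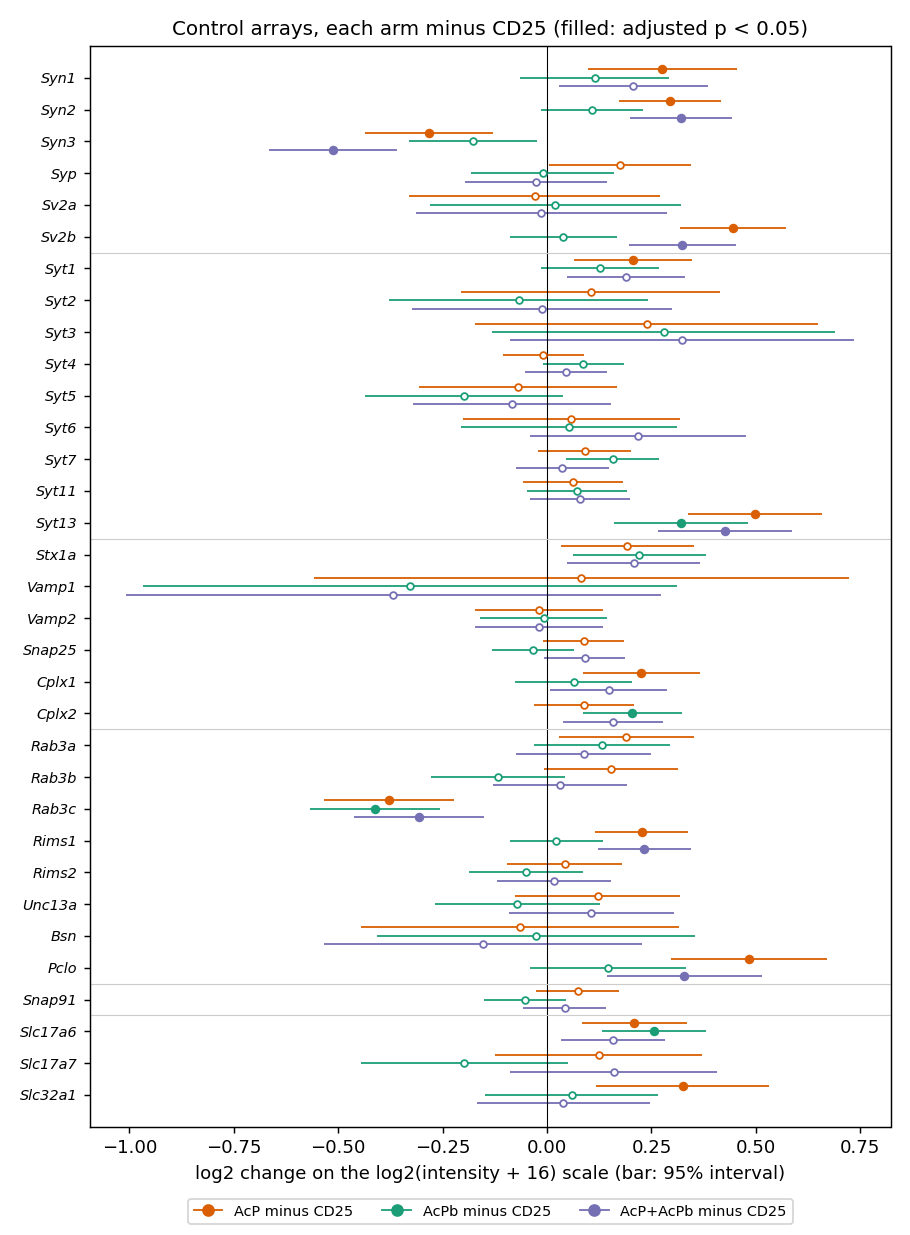
The log2 difference of control arrays from CD25 (x axis, log2(intensity + 16) scale) of the 33 tested members (y axis) is plotted for AcP, AcPb and AcP+AcPb neurons, with 95% intervals as bars and filled points for adjusted p under 0.05. Filled points count 12, 4 and 7, with Syt13 to the right and Rab3c to the left of 0 in all 3.

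Over both stimuli, 14 members were higher and 2 lower in the 12 arrays with AcP than in the 12 without. This comparison was added after the data were seen, and it averages AcP with AcP+AcPb and CD25 with AcPb. limma called 16 of 33 members (48.5%), against 29.2% of all genes (13% higher, 16.2% lower), and the median log2 difference was 0.11 over the members and 0.00 over all genes. Of 10 neuron markers 2 were called, with a median of 0.06, and of 7 markers of progenitors and dividing cells 6, with a median of -0.54, and their part in the result was not tested. The count was 9 on control arrays alone, and 17 for AcP against the mean of CD25 and AcPb within array code m21B.

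Syn2 ran from 2253 to 2798, with a median of 2565, in the 12 arrays with AcP and from 1999 to 2220.2, with a median of 2068, in the 12 without. No Syn2 array with AcP lay below any array without it, and the difference was 0.29 ± 0.03 (adjusted p = 7.8e-07). Its further probe sets were called as well, at 0.32 (adjusted p = 2.9e-06), 0.46 (adjusted p = 4e-07) and 0.19 (adjusted p = 0.0019). Rims1 ran from 1344 to 1578, with a median of 1470.0, in the 12 arrays with AcP and from 1166 to 1342, with a median of 1240.0, in the 12 without. It too did not overlap, at 0.24 ± 0.03 (adjusted p = 2.5e-06), so that 2 of 33 members (6.06%) separated the 24 arrays, against 1.29% of all genes.

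Of the others, Sv2b ran from 1244 to 1711, with a median of 1453, in the 12 arrays with AcP and from 1085 to 1281, with a median of 1168, in the 12 without (0.31 ± 0.03, adjusted p = 7.8e-07). Its highest value without AcP, in a CD25 array with IL-1b, exceeded only the lowest AcP+AcPb value. Syt13 differed by 0.32 ± 0.04 (6.1e-06). After IL-1b the arrays of Syt13 were 379, 381 and 346 in CD25, 505, 559 and 539 in AcP, 437, 408 and 409.6 in AcPb and 461, 457 and 484 in AcP+AcPb neurons. Those of Sv2b were 1270.5, 1239 and 1281 in CD25, 1462, 1581 and 1559 in AcP, 1167, 1086 and 1112 in AcPb and 1364, 1305 and 1244 in AcP+AcPb neurons.

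Snap25, the SNARE cleaved by botulinum toxin A, had 3452, 3598 and 3561 in CD25, 3712, 3716 and 3848 in AcP, 3453, 3424 and 3479.8 in AcPb and 3909, 3561 and 3832 in AcP+AcPb controls. After IL-1b Snap25 had 3664, 3295 and 3409.8 in CD25, 3786, 3864 and 3856 in AcP, 3209, 3418 and 3362 in AcPb and 3846, 3997 and 3989.9 in AcP+AcPb neurons, and the AcP arrays of both arms lay above AcPb and CD25 ones. Its difference between arms with and without AcP was 0.15 ± 0.02 (adjusted p = 9.2e-05). Slc17a7 had 633, 553 and 552 in CD25, 689, 526 and 695 in AcP, 538, 465 and 506 in AcPb and 624, 688 and 633 in AcP+AcPb controls, with AcP control 2 below the others of its group. With IL-1b Slc17a7 had 569, 461 and 612 in CD25, 677, 609.9 and 663 in AcP, 447, 366 and 432 in AcPb and 603, 563 and 482 in AcP+AcPb neurons, lowest in AcPb. Slc17a7 differed by 0.28 ± 0.06 (0.0015).

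Rab3b, a Rab3 of a subset of neurons, had 411, 414 and 414 in CD25, 499, 435 and 452 in AcP, 344, 402 and 395 in AcPb and 419, 419.7 and 428 in AcP+AcPb controls. With IL-1b Rab3b had 380.0, 386 and 436 in CD25, 522, 546 and 454 in AcP, 348, 372 and 357 in AcPb and 423, 484 and 433 in AcP+AcPb neurons, and its highest arrays were AcP and its lowest AcPb. Rab3b differed by 0.23 ± 0.04 (0.00016) and Pclo by 0.27 ± 0.04 (0.00016). Syn1 differed by 0.20 ± 0.04 (0.0014), Syt1 by 0.15 ± 0.03 (0.003), Cplx1 by 0.15 ± 0.03 (0.0027), Stx1a by 0.12 ± 0.04 (0.025) and Slc17a6 by 0.13 ± 0.03 (0.004). Snap91 ran from 4421 to 4841, with a median of 4515, in the 12 arrays with AcP and from 4018 to 4494, with a median of 4264, in the 12 without, with overlap and a small difference of 0.10 ± 0.02 (0.0041).

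The 2 lower members were Syn3, at -0.26 ± 0.04 (4.5e-05), and Rab3c, at -0.11 ± 0.04 (0.035). Syn3 had 1477, 1344 and 1502 in CD25, 1262, 1276 and 1247 in AcP, 1355, 1492 and 1456 in AcPb and 1239, 1252 and 1201 in AcP+AcPb neurons after IL-1b, and its second probe set gave -0.38 (adjusted p = 3.7e-05). Rab3c had 2111, 2177 and 2582 in CD25, 1915, 2047 and 1899.8 in AcP, 1699.8, 1796 and 1748 in AcPb and 1802, 1882 and 1790.5 in AcP+AcPb neurons after IL-1b, highest in CD25. Of 4 further probe sets of Rab3c, 1 had the same sign in this comparison and 3 the opposite one, with 0 called, and the Rab3c call held in 17 of 35 alternatives. Rab3b, Slc17a6, Slc17a7 and Syt1 lost theirs in 1 each, Snap91 and Stx1a in 2 each, and the other 9 members in none of the 35.

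After IL-1b the arrays of the other called members were as follows. Syn2 had 2207, 1999 and 2131 in CD25, 2606, 2618 and 2713 in AcP, 2016, 2006 and 2009 in AcPb and 2553, 2507 and 2541 in AcP+AcPb neurons, and Rims1 had 1229, 1166 and 1283 in CD25, 1435, 1578 and 1515 in AcP, 1170.4, 1202 and 1208 in AcPb and 1450.1, 1408 and 1344 in AcP+AcPb neurons, both lowest in AcPb and CD25. Syt1 had 5211, 4817 and 5233 in CD25, 5311, 5804 and 5738 in AcP, 4865, 4654 and 4831 in AcPb and 5269, 5452 and 5473 in AcP+AcPb neurons and Cplx1 had 4696, 4406 and 4845 in CD25, 4979.5, 5332 and 5373 in AcP, 4519.7, 4608 and 4318 in AcPb and 4806, 4743 and 4966 in AcP+AcPb neurons. Stx1a had 3289.9, 3119 and 3287 in CD25, 3602, 3923 and 3776 in AcP, 3641, 3192 and 3334 in AcPb and 3425, 3719 and 3577 in AcP+AcPb neurons, with the highest mean in AcP. Slc17a6 had 1352, 1365 and 1549 in CD25, 1751, 1899 and 1805 in AcP, 1558, 1688 and 1649 in AcPb and 1709, 1661 and 1648 in AcP+AcPb neurons, where 4 of the 6 arrays with AcP lay above every AcPb value. Slc32a1 had 1213, 1205 and 1348 in CD25, 1353, 1429 and 1422 in AcP, 1252, 1163 and 1153 in AcPb and 1022, 1293 and 1337 in AcP+AcPb neurons and Cplx2 had 3578, 3543 and 3756 in CD25, 3896, 3437 and 3632 in AcP, 3759, 3574 and 3543 in AcPb and 3782, 3565 and 3893 in AcP+AcPb neurons. The AcP arrays of Slc32a1 lay just above all others after IL-1b, and the arms overlapped for Cplx2.

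**Figure D3:**
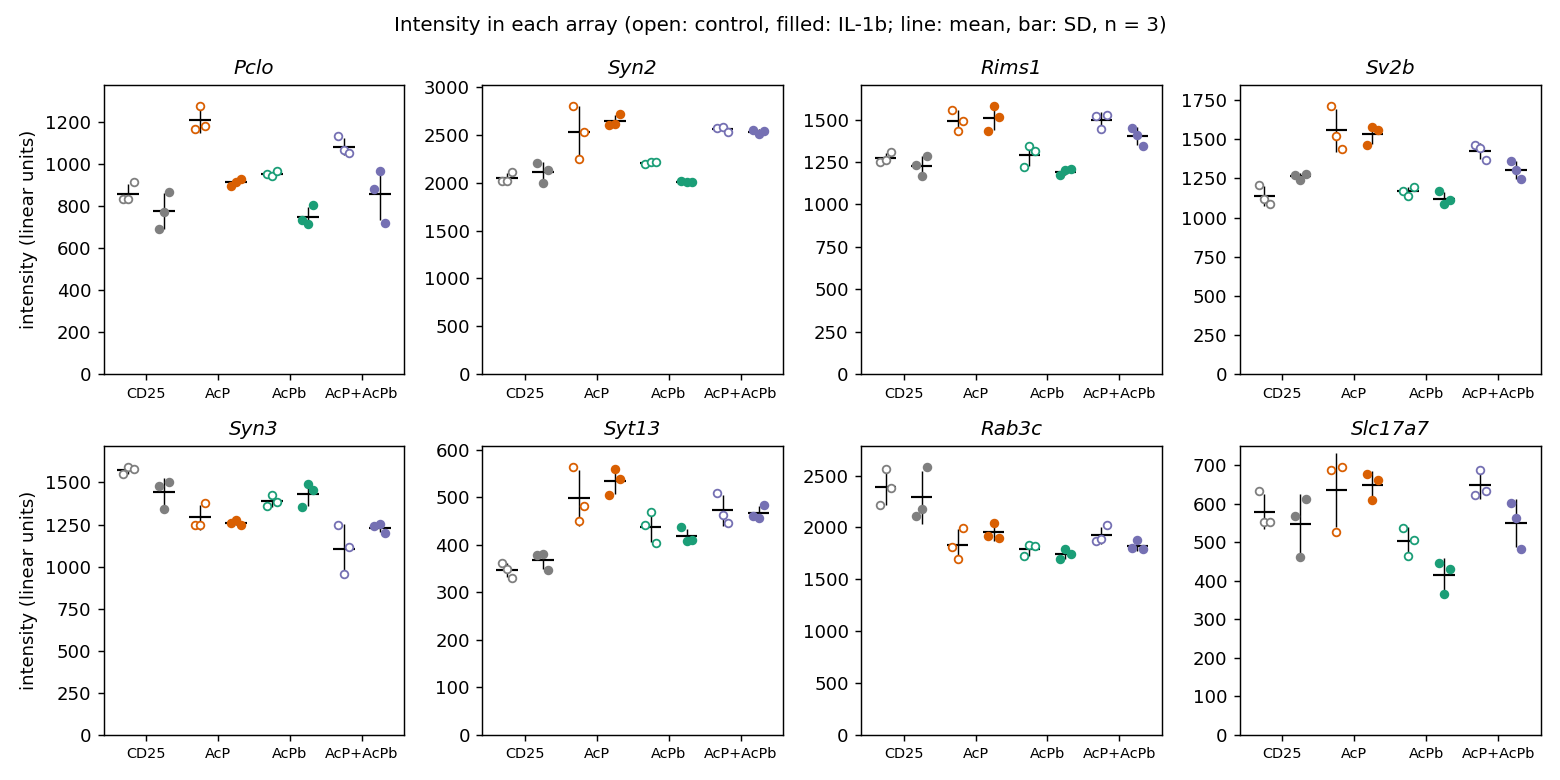
The intensity (y axis, linear units from 0) of 8 members is plotted in each of 24 arrays, by arm (x axis), as open points for control and filled points for IL-1b, with the mean as a line and the SD as a bar (n = 3). The mean of Pclo lies lower with IL-1b in every arm, the means of Syn2 and Rims1 are higher in AcP and AcP+AcPb than in CD25 and AcPb neurons, Rab3c is highest in CD25 neurons, and Syn3 in CD25 controls.

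For arms with AcPb against arms without it, also added later, limma called 5 of 33 members, all lower (15.2%, against 7.97% of all genes, 1.53% higher and 6.44% lower). They were Syp at -0.14 ± 0.04, Sv2b at -0.12, Rab3b at -0.14, Rab3c at -0.20 and Slc17a7 at -0.20 (adjusted p from 0.0026 to 0.048). Syp had 2916, 3202 and 2923 in CD25, 4082, 3184 and 3026 in AcP, 2961, 3111 and 2897 in AcPb and 2978, 2912 and 2981 in AcP+AcPb controls. After IL-1b it had 3338, 3098 and 3559 in CD25, 3239.8, 3475 and 3370.2 in AcP, 2843, 2869 and 2919 in AcPb and 3059, 2948 and 3047 in AcP+AcPb neurons. The highest Syp value was that of AcP control 1. The count was 1 on control arrays alone and 2 with quantile normalization or the mean of all probe sets (1 higher and 1 lower in either case), and it fell to 2 or 3 without any 1 of CD25 controls 2 and 3, CD25 IL-1b arrays 1 and 3, AcP control 1, AcP IL-1b arrays 2 and 3, AcPb controls 1 and 3, AcPb IL-1b arrays 2 and 3, AcP+AcPb control 3, or AcP+AcPb IL-1b arrays 1, 2 and 3.

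Over the 8 groups, 14 of 33 members (42.4%) varied in limma's F test, where 24.5% of all genes did. They were Syn1, Syn2, Syn3, Sv2b, Syt1, Syt13, Stx1a, Snap25, Rab3b, Rab3c, Rims1, Pclo, Slc17a6 and Slc17a7, led by Sv2b (adjusted p = 2.5e-05). The highest over the lowest group mean was 1.61 times for Pclo, 1.57 for Slc17a7, 1.54 for Syt13, 1.42 for Syn3, 1.41 for Rab3b and 1.39 for Sv2b. For members below the threshold it ran from 1.09 for Syt4 to 1.62 for the dim Vamp1. By mean log2 value, AcP neurons with IL-1b were the highest group for 12 members (36.4%) and AcP controls for 9 (27.3%), against 14.6% and 12.4% of all genes.

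**Figure D4:**
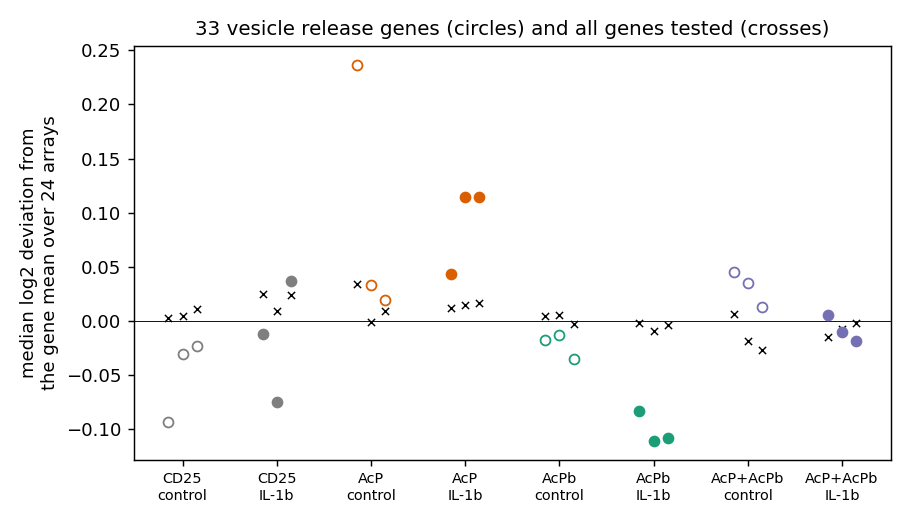
The median over the 33 members of each array's log2 deviation from the gene's mean over 24 arrays (y axis, circles) is plotted by group (x axis), with the same median over all genes tested as crosses. AcP control 1 is the highest at 0.2365, and the AcPb arrays with IL-1b lie between -0.1106 and -0.08263.

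A wider list of 80 other genes of vesicle fusion, priming and recycling was named on the array for 74 and tested for 72. After IL-1b 0 of the 72 were called in any arm or on average. Of all genes, 0%, 0.542%, 0.00703% and 0.457% were called in CD25, AcP, AcPb and AcP+AcPb neurons, and 0.781% on average. At an unadjusted p under 0.05 the 72 held 4, 1, 13 and 6 genes in these arms, against 6.04%, 8.79%, 11% and 11.1% of all genes. Without IL-1b, limma called 8 higher and 3 lower in AcP than in CD25 neurons (15.3% of the 72, all genes 15.5%), 2 higher and 1 lower in AcPb (4.17%, all genes 7.62%), and 9 higher and 3 lower in AcP+AcPb neurons (16.7%, all genes 18.7%). In all arms with AcP against those without, 25 were higher and 3 lower (38.9%, all genes 29.2%). Ppfia4, a liprin scaffold gene of the active zone, differed by 0.72 ± 0.16 in AcP (adjusted p = 0.0044) and 0.63 ± 0.16 in AcP+AcPb neurons. Rph3a, the Rab3 effector rabphilin, differed by 0.54 and 0.48, and Syngr1, the vesicle protein synaptogyrin, by 0.50 and 0.34. Amph (amphiphysin), which acts in vesicle retrieval, differed by 0.33 in AcP neurons, and Sh3gl2 (endophilin) and Eps15, which do too, by 0.20 and 0.23 in AcPb neurons. In AcP+AcPb neurons Ap2a1, a subunit of the clathrin adaptor AP2, was 0.28 higher and Ppfia1, another liprin gene, had -1.25 ± 0.36, the widest error of those called. Vamp3, a synaptobrevin also made by glia and other cells, was lower in all 3 arms, at -0.50 in AcP, -0.53 in AcPb and -0.38 in AcP+AcPb neurons. Unc13c, the priming factor Munc13-3, differed by 0.49 in AcP neurons, and AcPb minus AcP controls gave -0.68 ± 0.12 (adjusted p = 0.011), with Pacsin1, an endocytic adaptor, at -0.25 (0.049).

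Of 25 calls that members had in the 13 main comparisons with a direction, which leaves out the F test over 8 groups, 23 had a further tested probe set, and in 22 all of these had the same sign, with at least 1 of them also called in 11. The exception in sign was Cplx2.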

How the data were processed

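Total RNA of 24 samples was biotin-labelled (Eberwine), per the labels' protocols, and measured on 1-colour arrays. The authors deposited 1 intensity per probe set and array on a linear scale, with 16.4% to 18.2% of values below 0 and array medians of 55 to 66.4; their summarisation and scaling were not given in the sources used here. No further scaling was applied. Values below 0 were set to 0, 16 was added and log2 taken, which shrinks the change of dim genes. Of 45077 probe sets, 40 controls were left out; 34945 carried 1 gene symbol, 932 several and 9160 none in GEO's platform annotation, and only the first were named. Each gene was read on its probe set of highest mean, and genes above the 40th percentile in at least 3 arrays were tested, 14217 of 18193. limma 3.58.1 in R 4.3.3 fitted 8 group means to 24 arrays (lmFit and eBayes, two-sided, 16 residual degrees of freedom), with Benjamini-Hochberg adjustment over all genes tested within each of 14 comparisons and 2 added after the data were seen; the calling threshold was an adjusted p of 0.05. The number of arrays limits the precision. The fit was tested on simulated data. The members and lists were chosen with earlier results of these data known. All 34 members were described. Values of single arrays were given for members called in any comparison, apart from Snap91, given as ranges, and for the largest change in each IL-1b response. A wider list was described by at most 6 called genes per comparison, and Cxcl10, Ccl2 and Nfkbia were given as known IL-1b targets. Groups came from the sample titles. Alternatives were quantile normalization, centred array medians, 64 added, the dim filter left out or set at the 60th percentile, the mean of all probe sets, array weights, a replicate block, an array code block, only the groups compared, each array left out and, added later, a generalised log. Promoter sequences are RefSeq's (GRCm38.p6).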

Additional observations from a re-analysis of the deposited data

Results flagged for a closer look

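Sv2b, the vesicle glycoprotein gene, had log2 changes of opposite sign after IL-1b in CD25 and AcP+AcPb neurons, with no overlap between IL-1b and control arrays in either arm. Its log2 change was 0.15 ± 0.06 in CD25 neurons, where the controls were 1209, 1118 and 1085 intensity units and the IL-1b arrays 1270.5, 1239 and 1281. In AcP+AcPb neurons it was -0.13 ± 0.06, with 1465, 1444 and 1370.3 in controls and 1364, 1305 and 1244 after IL-1b. Neither change was called by limma (adjusted p = 0.82 and 0.45), and the difference between these arms was not tested. IL-1b and control arrays did not overlap for 13.7% of all genes in CD25 and 18.2% in AcP+AcPb neurons. AcP+AcPb controls 1 and 2 had array code m22B, and control 3 and the IL-1b arrays of that arm had m23B.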

How the results depend on the processing

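Of 172 alternatives to the counts of members called, apart from those leaving out an array, 155 stayed within 1.5 times the count reported, and no called difference changed sign. For the IL-1b response, 1 member was called in AcP neurons with quantile normalization, 64 added before log2 or a dim filter at the 60th percentile, and 1 in AcPb neurons with array weights, where 0 were called otherwise. Unstimulated, AcP against CD25 gave 12 calls, 5 with array medians centred and 1 with only the groups compared in the fit; AcPb against CD25 gave 4, and 1 and 1 under the same settings; AcP+AcPb against CD25 gave 7, and 14 with quantile normalization. The higher and lower calls were 3 and 2 for AcP and 0 and 1 for AcPb with centring, and 7 and 0 for AcP+AcPb with the mean of all probe sets. AcPb against AcP gave 1, 2 with quantile normalization, no dim filter or the 60th percentile, and 0 with only the groups compared. Arms with AcP gave 16, and 9 on control arrays only; arms with AcPb gave 5, 2 with quantile normalization, 2 with the mean of all probe sets and 1 on control arrays only. The cause of these changes was not tested, beyond the fewer arrays in the last and in the fits of only the groups compared. Leaving out 1 array gave 6 to 15 calls for AcP against CD25, 2 to 4 for AcPb against CD25, 6 to 9 for AcP+AcPb against CD25, 1 to 2 for AcPb against AcP (2 without AcP control 2 or 3), 0 to 1 for AcP+AcPb against AcP (1 without AcP+AcPb control 1), 0 to 1 for the AcP+AcPb response (1 without IL-1b array 2), 0 to 1 for the response of AcP against that of CD25 (1 without AcP control 3), 12 to 18 over the 8 groups, 1 to 1 for the average response, 15 to 17 for arms with AcP and 2 to 6 for arms with AcPb. Same-numbered arrays shared only a number, with correlations of their deviations from -0.178 to 0.292; with the replicate block AcP against CD25 gave 11 calls and the 8 groups 13, and the other counts did not change. Centring moved the median of all genes to -0.107 in the response of AcPb against that of AcP. The array code block was not run for unstimulated AcP+AcPb neurons or for the arms with and without a chain, where code and arm overlap. Dim members such as Vamp1, Syt2 and Syt6 have wide errors.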
